A study of Mus musculus with 12 samples.

Results

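The genes described here are 34 genes of the oligodendrocyte lineage, from the precursor cell to the myelin sheath, measured in spinal motor neurons (SMNs) and in dorsal spinal cord of the mouse. They were chosen by name, with earlier results of these data known, so shares over all features set beside their counts are description only. A gene counted as measured where the platform annotation gave a row exactly 1 gene symbol and that symbol was the gene's. At the gene level, where each value summarises all probes of a transcript cluster (the probes assigned to 1 gene), 32 of the 34 genes were measured among 24343 transcript clusters with 1 symbol. Enpp2 had no cluster with its symbol alone, and Evi2a shared its cluster with Evi2b. At the exon level, where each value belongs to a probeset (a few probes within 1 stretch of exon), 32 of the 34 genes were measured by 430 of 1195555 probesets, and Gjc3 and Myrf had none under those names. Both levels came from the same 6 exon arrays.

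SMNs were cut by laser from the anterior horn of frozen cervical spinal cord of adult male C57Bl/6 mice, as single large cells, and pieces of the dorsal side were cut from the same kind of sections as the control. The mice were not treated and carry no stated mutation. The labels call the groups anterior horn cells and posterior column, whereas the methods describe the control as dorsal horn areas, and the label names are kept here. Each group had 3 arrays, and neither source says that each array is 1 mouse. The p-values thus rest on how far arrays of a group differ, which may be technical.

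The RNA of all samples was amplified linearly before hybridisation. An anterior horn sample was thus made of picked large cells and a posterior column sample of all cells in pieces of tissue. Motor neuron and dorsal horn markers separated the groups. Over all clusters, the gene-level test given below called 13.8% higher and 12.6% lower in the anterior horn arrays. All 5 motor neuron markers rose in the anterior horn arrays, with the acetylcholine-synthesising enzyme Chat at 1842, 1760.4 and 1749 against 14.0, 11.4 and 12.2 in intensity, and the vesicular acetylcholine transporter Slc18a3 at a log2 fold change of 7.03. Of 9 dorsal horn markers 7 fell, and the neuropeptide gene Tac2 read 10.6, 4.09 and 5.21 against 1696, 1504 and 1842, beside a log2 fold change of -7.05 for the transcription factor Lbx1. Array medians lay between 32.9 and 35.2 in intensity, and Pearson's r between arrays was 0.960 to 0.961 within anterior horn, 0.936 to 0.945 within posterior column and 0.880 to 0.888 across them.

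Oligodendrocytes wrap axons of the central nervous system in myelin, a compact stack of membrane rich in a few proteins and in galactolipids. They arise from precursor cells that carry the growth factor receptor PDGFRα and the proteoglycan NG2, remain spread through the adult cord and divide slowly. Olig1, Olig2, Sox10 and Nkx2-2 set and hold the lineage, and Myrf switches on the myelin genes as a precursor matures. In the spinal cord, satellite oligodendrocytes also lie against motor neuron cell bodies, and the white matter of the dorsal columns lies beside the dorsal horn.

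The promoters of the 4 genes with the largest falls are shown because these genes fell furthest among the 32, and each runs from 250 bases before to 50 bases after the RefSeq transcription start on GRCm38.p6. They were searched on both strands for ACAAAG, a core of the sites bound by Sox proteins such as Sox10, and for CTGGCAC or CTGGTAC, the site of Myrf; these words do not overlap each other. Capitals mark matches.
Pdgfra (chr5:75152001-75152300, plus strand): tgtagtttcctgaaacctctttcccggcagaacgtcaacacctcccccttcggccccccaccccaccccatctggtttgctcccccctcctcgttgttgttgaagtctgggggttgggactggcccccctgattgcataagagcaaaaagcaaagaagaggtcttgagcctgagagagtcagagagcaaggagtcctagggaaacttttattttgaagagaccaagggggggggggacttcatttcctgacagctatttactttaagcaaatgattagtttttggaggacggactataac
Opalin (chr19:41077064-41077363, minus strand): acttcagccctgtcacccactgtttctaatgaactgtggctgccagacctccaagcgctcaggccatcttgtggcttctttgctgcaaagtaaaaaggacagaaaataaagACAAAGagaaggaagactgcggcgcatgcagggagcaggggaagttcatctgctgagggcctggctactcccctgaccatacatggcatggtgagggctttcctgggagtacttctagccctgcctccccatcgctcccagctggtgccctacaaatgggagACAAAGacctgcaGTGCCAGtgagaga
Plekhb1 (chr7:100662345-100662644, minus strand): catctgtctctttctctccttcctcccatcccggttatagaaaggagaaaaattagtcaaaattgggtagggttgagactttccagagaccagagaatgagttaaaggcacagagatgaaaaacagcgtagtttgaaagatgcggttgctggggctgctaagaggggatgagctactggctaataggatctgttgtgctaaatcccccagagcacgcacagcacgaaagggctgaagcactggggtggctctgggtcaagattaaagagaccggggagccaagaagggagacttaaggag
Enpp6 (chr8:46986637-46986936, plus strand): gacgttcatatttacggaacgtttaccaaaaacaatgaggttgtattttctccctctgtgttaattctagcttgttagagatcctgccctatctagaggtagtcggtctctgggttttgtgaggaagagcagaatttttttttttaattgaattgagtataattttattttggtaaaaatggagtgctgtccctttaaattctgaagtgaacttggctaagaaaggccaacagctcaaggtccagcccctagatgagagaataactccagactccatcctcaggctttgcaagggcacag
Opalin held 2 matches to the Sox word and 1 to the Myrf word, and the promoters of Pdgfra, Plekhb1 (the first of 2 entries) and Enpp6 held 0. Among 32851 RefSeq promoters of this length, 18.7% held the Sox word and 7.1% held a Myrf word. Of 31 entries for 23 of the 34 genes, some of which overlap each other, 9 (29.0%) held the Sox word and 6 (19.4%) a Myrf word. The genes with the Sox word were Cnp, Gjb1, Mag, Mobp, Opalin, Plekhb1 and Tspan2, and those with the Myrf word were Cnp, Mag, Mog, Opalin and Tmem125. A match is a run of letters and is not evidence of binding, and no match says only that these letters are not in this window.

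At the gene level, 29 of the 32 measured genes were lower in the anterior horn arrays, 1 was higher (Nfasc) and 2 did not pass the test (Gjb1 and Ninj2). The test was limma on log2(intensity + 1) over all 24343 clusters, with a Benjamini-Hochberg adjusted p under 0.05, and over all clusters it called 12.6% lower and 13.8% higher. Among the brighter 50% of clusters 19.1% were lower. The median log2 fold change of the 32 genes, anterior horn minus posterior column, was -0.92, against 0.02 over all clusters. In 30 of the 32 genes every anterior horn array lay below every posterior column array, and in 1 every one lay above, where 21.4% and 24.1% of all clusters did so. Of the 29 falls 12 exceeded 2-fold, a size that 7.45% of all clusters reached as a called fall. When all 238609 rows of the table were tested, named or not, 3 of the falls passed (Opalin, Plekhb1 and Pdgfra), beside 0.454% of rows. The anterior horn samples were picked large cells and the posterior column samples pieces of tissue. This difference in sampling, fewer cells of a type and less RNA per cell cannot be told apart here.

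**Figure D1:**
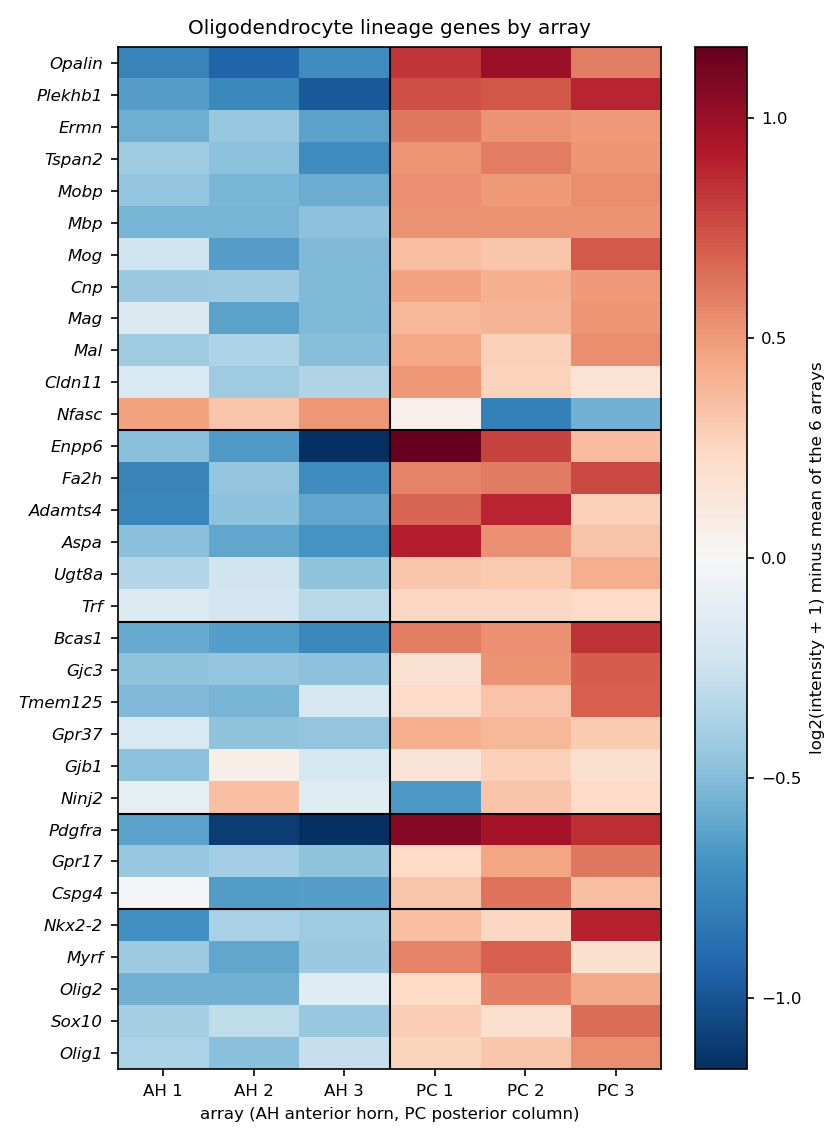
Heat map of 32 oligodendrocyte lineage genes (rows, grouped by role with black lines) in 3 anterior horn (AH) and 3 posterior column (PC) arrays (columns), where colour gives log2(intensity + 1) minus the gene's mean over the 6 arrays. In 30 rows all anterior horn arrays are lower than all posterior column arrays, Nfasc runs the other way and Ninj2 overlaps.

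The 6 arrays were alike within a group. Taking the median over the 32 genes of each gene's distance from its mean over the arrays, the anterior horn arrays lay at -0.45, -0.48 and -0.49 on the log2 scale and the posterior column arrays at 0.44, 0.48 and 0.51. No array of either group stood apart by this measure, although single genes did vary within a group. Leaving out any 1 array kept 15 to 26 of the 29 falls past the threshold, with 20, 15 and 17 without anterior horn 1, 2 and 3, and 26, 23 and 25 without posterior column 1, 2 and 3. In those fits 7.36%, 7.15%, 7.25%, 10.6%, 9.31% and 10.1% of all clusters were lower. Across the 6 fits 14 genes were called in each, namely Mbp, Mobp, Cnp, Mal, Opalin, Ermn, Tspan2, Plekhb1, Fa2h, Aspa, Enpp6, Adamts4, Bcas1 and Pdgfra. The share of all clusters called in all 6 fits was not counted.

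Of the 12 myelin protein genes 11 fell and 1 rose, with a median log2 fold change of -0.98. Mbp, which encodes the basic protein that seals the cytoplasmic faces of myelin, read 3474, 3493 and 3631 in the anterior horn arrays and 7269, 7282 and 7272 in the posterior column arrays. The groups did not overlap, and the arrays of each group lay close together. Its level was 2.06-fold lower in the anterior horn arrays (log2 fold change -1.04, SE 0.13, limma adjusted p = 0.00434). Mobp, a second basic protein of the same compartment, read 3531, 3339 and 3243 against 6985, 6838 and 7032, again without overlap and 2.06-fold lower (log2 fold change -1.04, SE 0.14, limma adjusted p = 0.00458). Cnp, a phosphodiesterase of the cytoplasmic channels in myelin, read 1461, 1473 and 1381 against 2720.1, 2622 and 2775. It was 1.88-fold lower, with all 3 anterior horn arrays below the rest (log2 fold change -0.91, SE 0.14, limma adjusted p = 0.00664).

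Mog and Mag sit on the outer and inner faces of the sheath, Mog as a marker of late maturation and Mag as the adhesion molecule that faces the axon. Mog read 1262, 949 and 1041 in the anterior horn arrays and 1889, 1854 and 2434 in the posterior column arrays, and was 1.90-fold lower (log2 fold change -0.92, SE 0.19, limma adjusted p = 0.0182). Mag read 1536, 1125 and 1213 against 2264, 2280.1 and 2468, and was 1.82-fold lower (log2 fold change -0.87, SE 0.17, limma adjusted p = 0.016). For both genes anterior horn 1 was the highest array of its group and still lay below every posterior column array. Neither passed without anterior horn 2 (limma adjusted p = 0.0691 for Mog and 0.0632 for Mag) or without anterior horn 3 (0.066 and 0.0624).

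Opalin and Plekhb1 had the largest falls among the myelin genes. Opalin, a transmembrane protein of late oligodendrocytes whose promoter is printed above, read 348, 314 and 363 against 1068, 1193 and 907. It was 3.07-fold lower (log2 fold change -1.62, SE 0.17, limma adjusted p = 0.00245), and the lowest posterior column array was far above the highest anterior horn array. Plekhb1, a membrane-associated protein with a pleckstrin homology domain, read 1534, 1420.4 and 1216 against 4005, 3944 and 4407, likewise without overlap. It was 2.97-fold lower (log2 fold change -1.57, SE 0.16, limma adjusted p = 0.0023). The fall of the actin-binding Ermn was -1.09 on the log2 scale, of the tetraspanin Tspan2 -1.08 and of the raft proteolipid Mal -0.85. Cldn11, the tight junction claudin between myelin layers, fell least (-0.63, limma adjusted p = 0.0369) and did not pass when an anterior horn array, posterior column 1 or posterior column 2 was left out (limma adjusted p = 0.0725 to 0.121).

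Nfasc was the only gene of the 32 that was higher in the anterior horn arrays. It encodes neurofascin, of which a glial form lies in the paranodal loops of oligodendrocytes and a neuronal form at nodes and at the axon initial segment. Nfasc read 3087, 2802 and 3170.1 in the anterior horn arrays and 2329, 1298 and 1515 in the posterior column arrays. The groups did not overlap, with posterior column 1 nearest to the anterior horn arrays. The level was 1.82-fold higher (log2 fold change 0.86, SE 0.25, limma adjusted p = 0.0468). This call was kept without posterior column 1 and was lost when any 1 of the other 5 arrays was left out (limma adjusted p = 0.103 to 0.129). It was also lost under median centring and under quantile normalization of the arrays, with the same sign.

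All 6 measured enzymes and secreted proteins of the lineage fell, with a median log2 fold change of -1.20. Enpp6, a choline-specific phosphodiesterase that marks newly forming oligodendrocytes, read 124, 110.2 and 77.8 in the anterior horn arrays against 392, 302 and 224. Anterior horn 3 and posterior column 3 were the lowest of their groups, and the groups did not overlap. It was 2.90-fold lower (log2 fold change -1.54, SE 0.28, limma adjusted p = 0.0122). Fa2h and Ugt8a, which hydroxylate the fatty acid and add the galactose of myelin galactolipids, were 2.47-fold and 1.62-fold lower. Aspa, which frees acetate from N-acetylaspartate, was 2.27-fold lower, and the secreted protease Adamts4 was 2.34-fold lower. The iron carrier transferrin (Trf) was 1.39-fold lower (log2 fold change -0.47, limma adjusted p = 0.0491), the smallest of these, and did not pass when any 1 of the 6 arrays was left out (limma adjusted p = 0.0794 to 0.152). Ugt8a did not pass when any 1 of the anterior horn arrays was left out (limma adjusted p = 0.053 to 0.0717).

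Of 6 gap junction and other membrane genes 4 fell, and the median log2 fold change was -0.79. Bcas1, a marker of early myelinating cells, had a log2 fold change of -1.31, the gap junction gene Gjc3 (connexin 29) of -0.93, Tmem125 of -0.83 and the receptor Gpr37 of -0.74. Gjc3 likewise did not pass when any 1 of the anterior horn arrays was left out (limma adjusted p = 0.0549 to 0.0562). Gpr37 did not pass without anterior horn 2, anterior horn 3 or posterior column 2 (limma adjusted p = 0.0502 to 0.0749). Tmem125 did not pass without anterior horn 1, anterior horn 2, posterior column 2 or posterior column 3 (limma adjusted p = 0.0553 to 0.0909), and a second, dimmer cluster with its symbol stood at 0.16 and did not pass.

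Gjb1 and Ninj2 were the members that did not pass. Gjb1 (connexin 32), a gap junction protein of myelinating cells, read 318, 464 and 385 against 490.3, 539 and 505. Every anterior horn array lay below every posterior column array, by a small margin for anterior horn 2. Its log2 fold change was -0.41 (SE 0.18, 95% interval -0.86 to 0.04, limma adjusted p = 0.152). Ninj2, an adhesion protein first described in injured nerve, read 102, 141 and 100.1 against 69.2, 139 and 130.3. Its groups overlapped, with posterior column 1 the lowest array of all. Its log2 fold change was 0.07 (SE 0.31, 95% interval -0.70 to 0.83, limma adjusted p = 0.894), an interval that holds falls and rises of similar size.

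The 3 precursor genes fell, and Pdgfra fell further than any other of the 32 genes. Pdgfra, the receptor through which PDGF keeps precursors dividing, read 498, 357 and 342 in the anterior horn arrays and 1596, 1504 and 1389 in the posterior column arrays. The groups stood far apart, with anterior horn 1 the highest of its group. The level was 3.79-fold lower (log2 fold change -1.92, SE 0.20, limma adjusted p = 0.00233). Cspg4, which encodes the NG2 proteoglycan and is also made by pericytes, read 89.8, 57.5 and 57.7 against 114, 141 and 116. It was 1.83-fold lower without overlap (log2 fold change -0.87, SE 0.23, limma adjusted p = 0.0369). Gpr17, a receptor of cells committed to differentiate, read 72.8, 75.4 and 71.5 against 117, 137 and 152. It was 1.83-fold lower, also without overlap (log2 fold change -0.87, SE 0.16, limma adjusted p = 0.0122). Cspg4 kept its call without anterior horn 1 and lost it when any 1 of the other 5 arrays was left out (limma adjusted p = 0.0638 to 0.115), and Gpr17 did not pass without anterior horn 3 (limma adjusted p = 0.0502).

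All 5 transcription factors of the lineage fell, with a median log2 fold change of -0.84. Olig1 read 497, 457 and 533 against 766, 803 and 931 (log2 fold change -0.75, SE 0.16, limma adjusted p = 0.0188). Olig2, its partner, which the progenitors of motor neurons also use in the embryo, read 175, 174 and 233 against 302, 387 and 349.6 (log2 fold change -0.84, SE 0.19, limma adjusted p = 0.024). Sox10, needed for terminal differentiation, read 176, 187 and 169 against 282, 261 and 363 (log2 fold change -0.75, SE 0.18, limma adjusted p = 0.0271). In each of these 3 genes the anterior horn arrays lay below all posterior column arrays. Nkx2-2, which acts at the onset of differentiation, read 269, 338 and 329 against 560.1, 520.1 and 818 (1.99-fold lower, SE 0.22 on the log2 scale, limma adjusted p = 0.0233). Myrf read 471, 417 and 470.1 against 945, 1024 and 720.2 (log2 fold change -0.97, SE 0.19, limma adjusted p = 0.014). Both again separated the groups, and the posterior column arrays spread more than the anterior horn arrays.

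The calls of the transcription factors changed when single arrays were left out. Without anterior horn 1, 2 and 3 there were 1, 0 and 2 of the 5 transcription factors past the threshold, and without posterior column 1, 2 and 3 there were 5, 4 and 4. The corresponding counts for the 12 myelin protein genes were 10, 8 and 8, then 11, 10 and 11. The adjusted p of the transcription factors in the fits that lost a call ran from 0.0525 (limma, Olig1 without anterior horn 3) to 0.0906 (limma, Sox10 without anterior horn 3). Their unadjusted limma p stayed under 0.05 for 5 of 5 in each of the 6 fits, where 15.9% to 19.3% of all clusters were lower at that threshold. With the replicate number fitted as a block, 0 of the 5 passed the adjusted threshold, where 7.93% of all clusters were lower. When all 238609 rows were tested 0 passed as well, where 0.454% of rows were lower. The precursor and transcription factor genes together had a median log2 fold change of -0.87, beside -0.98 for the myelin protein genes, and the difference between these medians was not tested.

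**Figure D2:**
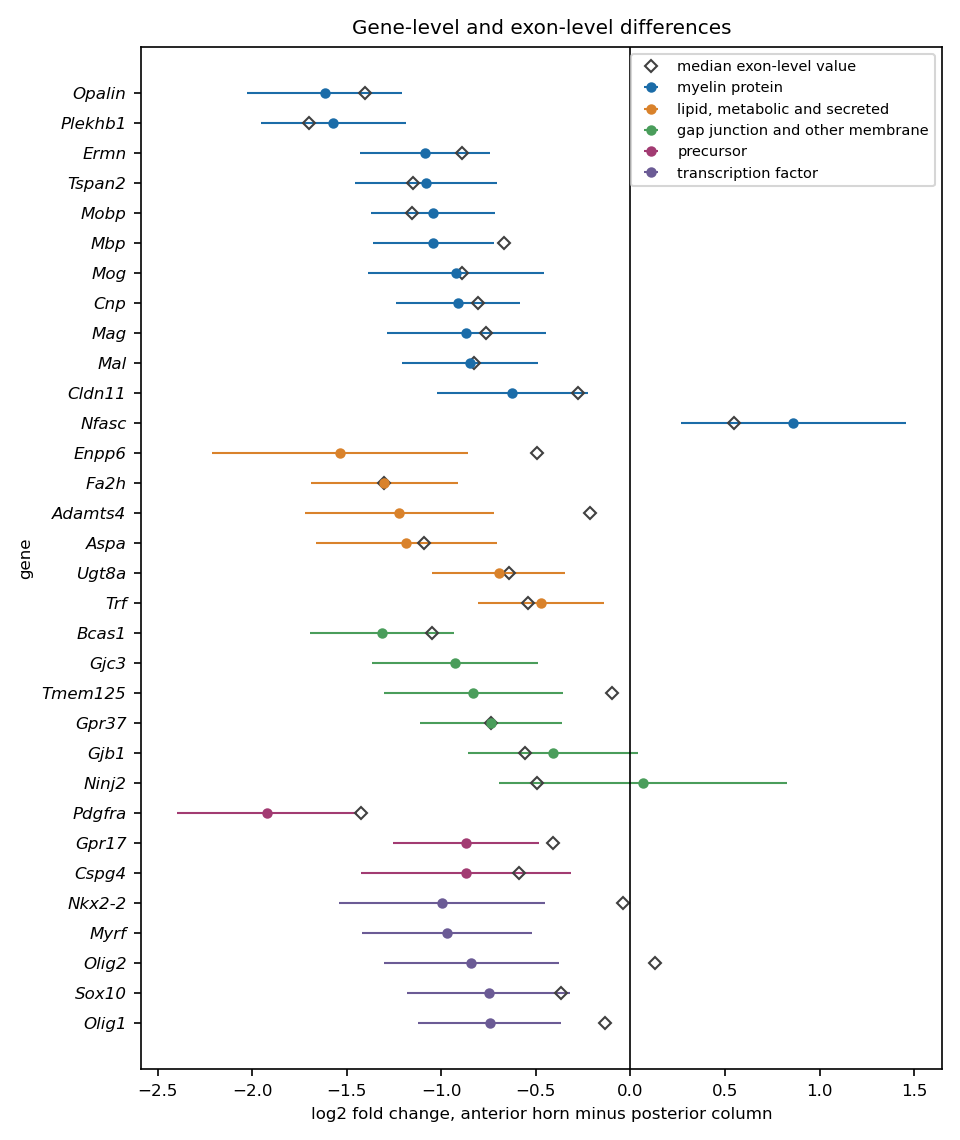
Log2 fold change, anterior horn minus posterior column, of each gene (rows), with filled circles for the gene-level value, lines for its 95% interval and open diamonds for the median of the gene's exon-level probesets. Gene-level values run from -1.92 (Pdgfra) to 0.86 (Nfasc), and the diamonds of the transcription factors lie nearer to 0 than their circles.

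The exon-level table measured the same RNA probeset by probeset. Of the 430 probesets of the lineage genes, 35 were lower and 0 were higher at a limma adjusted p under 0.05 over all 1195555 probesets, where 0.654% were lower and 0.57% higher. At an unadjusted limma p under 0.05, 221 were lower and 22 higher, where 6.22% and 6.94% of all probesets were so, and 338 of the 430 had a negative log2 fold change, where 47.1% of all did. When only the 319246 probesets with 1 symbol were tested, 226 were lower at an unadjusted limma p under 0.05, where 9.93% of these probesets were. Of the 401 probesets brighter than the median probeset, 34 were lower at the adjusted threshold, beside 1.18% of all such probesets. How many of all genes had a called probeset was not counted, and genes differ in their number of probesets. Genes of the lineage with a called probeset numbered 12. They were led by Plekhb1 with 8 of 16 probesets, followed by Mbp with 4 of 23, Mobp with 4 of 10 and Pdgfra with 4 of 33. Fa2h and Bcas1 had 3 each, Opalin, Tspan2 and Enpp2 had 2, and Ermn, Aspa and Evi2a had 1. These calls depended on all 6 arrays being present: 1, 0 and 0 were left without anterior horn 1, 2 and 3, and 2, 1 and 3 without posterior column 1, 2 and 3, where 0.118% to 0.286% of all probesets were lower. At an unadjusted limma p under 0.05, 189 to 208 were lower in these fits, where 5.11% to 6.37% of all probesets were.

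**Figure D3:**
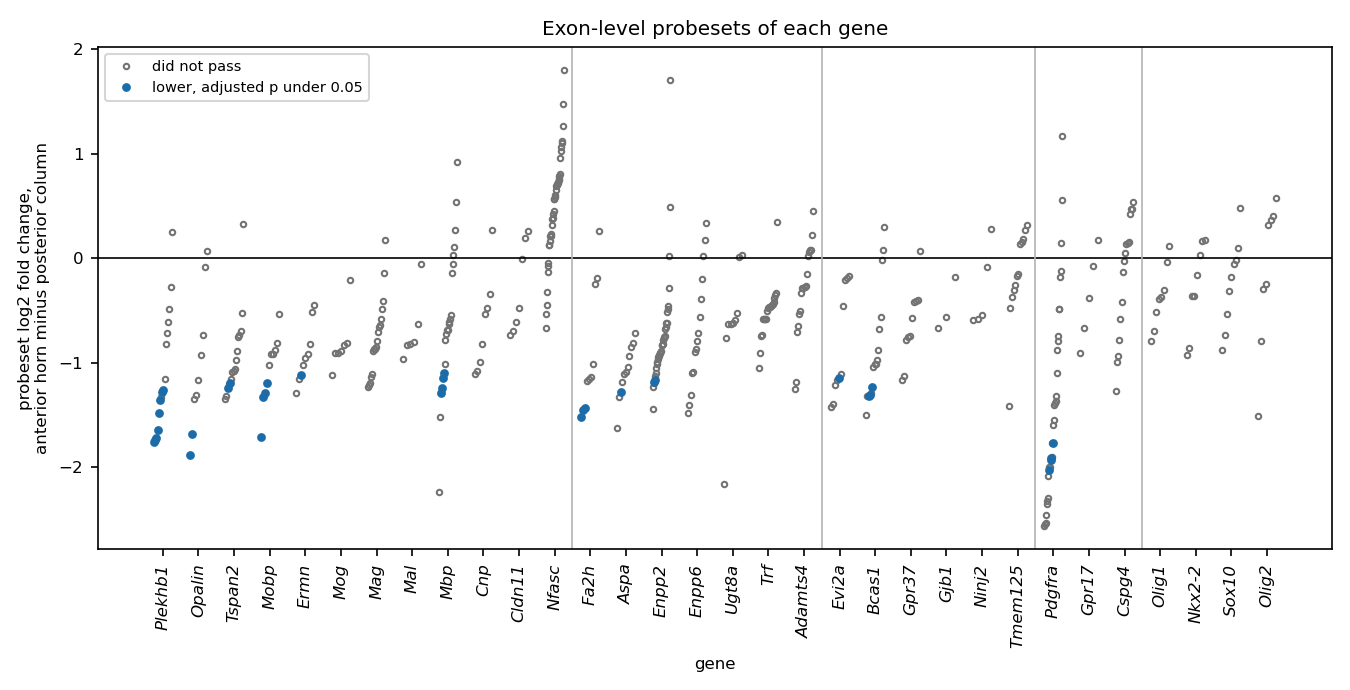
Log2 fold change, anterior horn minus posterior column (vertical axis), of each exon-level probeset of 32 genes (horizontal axis, grouped by role), with filled points for probesets that were lower at an adjusted p under 0.05. Of 430 points 338 lie below 0 and 35 are filled, while Nfasc has 33 of its 40 points above 0.

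Enpp2 and Evi2a were measured at this level only. Enpp2 encodes autotaxin, a secreted enzyme made by oligodendrocytes and by choroid plexus, and Evi2a a membrane protein. The median value of the 35 Enpp2 probesets was lower in the anterior horn arrays (log2 fold change -0.98, SE 0.14, limma adjusted p = 0.00386), and that of the 10 Evi2a probesets was too (-0.91, SE 0.22, limma adjusted p = 0.0275). Over all 22345 genes whose median probeset value was tested in this way, 6.91% were lower and 9.86% higher.

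With that median value per gene, 18 of 32 genes were lower and 0 higher, and 21 and 1 were so at an unadjusted limma p under 0.05, where 12% and 18% of the 22345 genes were. By role the counts were 9 of 12 myelin protein genes, 5 of 7 enzymes and secreted proteins, 3 of 6 membrane genes, 1 of 3 precursor genes and 0 of 4 transcription factors. Pdgfra was the precursor gene that passed, at -1.42 on the log2 scale. Of the transcription factors, Olig1 stood at -0.13, Olig2 at 0.13, Sox10 at -0.37 and Nkx2-2 at -0.04, and 0 of 4 had an unadjusted limma p under 0.05. The falls called at the gene level were thus not called in the median of the probesets, and of the 8 Olig2 probesets 4 had a positive log2 fold change. Among the myelin genes Mbp moved from -1.04 to -0.67 (limma adjusted p = 0.123), and Cldn11 from -0.63 to -0.28 (0.259). Enpp6 and Adamts4 moved from -1.54 and -1.22 to -0.49 and -0.21, Tmem125 from -0.83 to -0.10 and Gpr17 from -0.87 to -0.41, none past the threshold. Cspg4 (-0.59) and Gpr37 (-0.74) did not pass either. Gjb1, which had not passed at the gene level, passed here at -0.56 (limma adjusted p = 0.0427).

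The probesets of a gene differed from each other in fold change for 13 of 32 genes by diffSplice, limma's test across the probesets of each gene, where 21.4% of 21412 genes passed. Mbp, which is spliced into several forms, had probesets from -2.23 to 0.92 on the log2 scale (diffSplice adjusted p = 1.55e-07 in limma). The probesets of Nfasc ran from -0.67 to 1.81, with 33 of 40 positive, 17 higher at an unadjusted limma p under 0.05 and 0 past the adjusted threshold (diffSplice adjusted p = 0.000141 in limma). Enpp2 had the widest span upward among the enzymes, from -1.44 to 1.71, and Pdgfra ran from -2.56 to 1.17. Plekhb1, Fa2h, Bcas1, Ugt8a, Tspan2, Mobp, Cldn11, Cspg4 and Olig2 were the other genes that passed. The positions of the probesets in their genes were not used, so forms of a transcript and weak probesets cannot be told apart.

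In the gene-level test 12.6% of all clusters were lower and 13.8% higher. Among 36 other genes of the oligodendrocyte lineage 18 were lower, 1 was higher and 17 did not pass, with a median log2 fold change of -0.71. The largest falls were those of Tcf7l2, a Wnt effector of differentiating cells (-1.77, limma adjusted p = 0.00201), and Ptprz1, a receptor phosphatase of precursors and astrocytes (-1.69, limma adjusted p = 0.00143). Gamt, which makes creatine and is abundant in oligodendrocytes, was the gene that rose (0.97, limma adjusted p = 0.0208). Of 10 genes for the neuronal side of the node and paranode 5 were higher, 1 was lower and 4 did not pass, with a median of 0.30. The sodium channel Scn8a (1.29) and the adhesion molecule Nrcam (1.24), both partners of neurofascin at the node or initial segment, rose most, and the scaffold Ank3 fell (-0.64).

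Markers of other glia and of vessels moved with the oligodendrocyte genes, in a test that called 12.6% of all clusters lower. All 7 measured astrocyte markers were lower (median -1.52), led by the glutamate transporter Slc1a3 (-2.79) and Aldh1l1 (-2.05). Of 6 microglia markers 5 were lower (median -1.44), with Csf1r at -1.81 and P2ry12 at -1.76, and of 6 endothelial markers 5 were lower (median -1.29), with Pecam1 at -1.93 and Flt1 at -1.67. The summed intensity of the astrocyte markers was 6202 to 6799.9 in the anterior horn arrays and 18127 to 19112 in the posterior column arrays. That of the microglia markers was 1581 to 1599 against 3894 to 4132, and that of the endothelial markers was 624 to 716 against 1739 to 2272. In these 3 lists 0 values were at 0, and the lowest was 30.9, among the microglia markers. The part of these cell types in the result was not tested.

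Over all clusters 12.6% fell and 13.8% rose in the same test. Of 4 measured Schwann cell markers 0 fell, 1 rose and 3 did not pass, the riser being Pmp22 (2.89), which motor neurons also express. Their summed intensity was 3426 to 3586 in the anterior horn arrays and 2226 to 2483 in the posterior column arrays, and without Pmp22 it was 1422 to 1655 against 1957.5 to 2243. Of 5 pan-neuronal genes 2 rose, Eno2 (0.67) and Snap25 (0.49), 1 fell, Syt1 (-3.89), and 2 did not pass. The summed intensity of the pan-neuronal genes overlapped, at 12638 to 13463 against 12348 to 14063.5. The part of neuronal content in the result was not tested either.

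**Figure D4:**
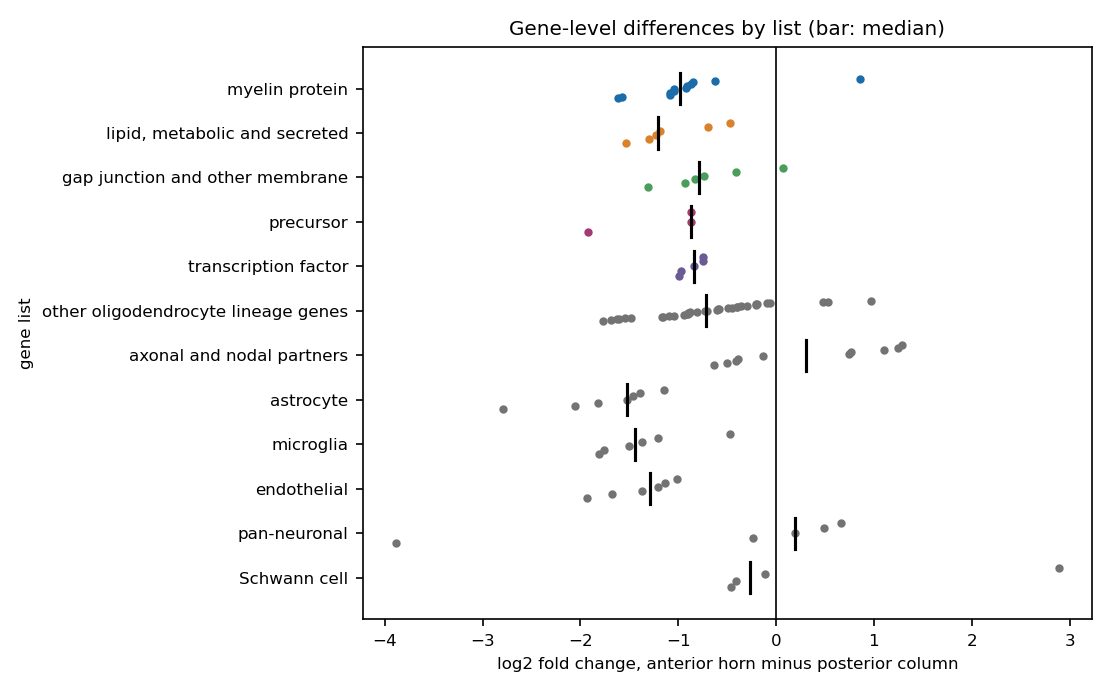
Gene-level log2 fold change, anterior horn minus posterior column (horizontal axis), of each gene (points) in the 5 roles of the lineage genes and in 7 other lists (rows), with a black bar at each list's median. The oligodendrocyte roles have medians from -1.20 to -0.79, the astrocyte, microglia and endothelial lists from -1.52 to -1.29, and the nodal partners lie at 0.30.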

How the data were processed

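The genes, their roles and the other gene lists were chosen with earlier results of these data known. The authors deposited 2 tables from the same 6 exon arrays, made with Affymetrix Expression Console 1.3.1.187, namely gene-level values as linear intensities and exon-level values as log2 values. How the background was corrected, how probes were summarized and which genome build was used is not given in the sources used here. Precision is limited by having 6 arrays. Both tables were used with no further normalization. Intensities were tested as log2(intensity + 1), and fold changes on this scale understate the change of dim genes.

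Rows were named from the platform annotation, which can be old. At the gene level 24343 rows had 1 symbol, 1797 several and 212469 none, and only those with 1 symbol were tested. At the exon level 319246 of 1195555 probesets had 1 symbol, 7654 had several, and all probesets were tested. The brightest cluster stood for a gene with several.

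Differences were tested with limma 3.58.1 (lmFit and eBayes, two-sided) and diffSplice in R 4.3.3, after a check on simulated data. Benjamini-Hochberg adjustment covered the 24343 clusters with 1 symbol, all 1195555 probesets, the 22345 exon-level medians or the 21412 genes of diffSplice. With 3 arrays a group, the smallest p of an exact permutation test is 0.1, and none was run. Values of each array are given for the main myelin, precursor and transcription factor genes, the 4 largest falls, and each gene that rose or did not pass. From the other lists the 2 largest falls and rises that passed are named. Promoters came from RefSeq (GRCm38.p6), which was used for no coordinates of the arrays. Some genes of the marker lists are not reported here. Alternatives covered the normalization, filters on dim rows, the value added before the log, the test, the rows tested, the replicate number as a block and each array left out in turn.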

Additional observations from a re-analysis of the deposited data

How the results depend on the processing

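The count of 29 lower genes stayed at 27 to 29 under median centring, quantile normalization, the filter on the dimmest 25%, a floor of 16, 16 added before the log2, limma with trend and robust, a t-test at the same adjusted threshold and 1 row per symbol. In these settings 10.6% (the t-test) to 19.1% (the filter on the dimmest 25%) of all clusters tested were lower. The count was 3 when all 238609 rows were tested (Opalin, Plekhb1 and Pdgfra, with 0.454% of rows lower). It was 18 with the exon-level median of each gene (6.91% of all genes), and 15 to 26 when each array was left out in turn (7.15% to 10.6% of all clusters). Opalin, Plekhb1 and Pdgfra were called under all 17 alternatives, and the share of all clusters called under all of them was not counted. The 1 rise (Nfasc) became 0 under median centring, quantile normalization, the t-test, all rows and the exon-level median, and 0 to 1 without an array. The median log2 fold change of the myelin protein genes was -0.98, with -1.08 under quantile normalization, -0.86 by the exon-level median and -1.03 to -0.94 without an array. That of the precursor and transcription factor genes was -0.87, with -0.37 by the exon-level median. Olig2 changed sign to 0.13 by the exon-level median, and Ninj2 to -0.49 by that median, to -0.09 without anterior horn replicate 2 and to -0.25 without posterior column replicate 1, in a range of -0.25 to 0.25 without an array. Lower probesets numbered 35 and became 99 with the dimmest 50% left out (2.44% of all probesets tested) and 165 with trend and robust (1.99%). They became 110 when only probesets with 1 symbol were tested (3.27%), and 0 to 3 without an array (0.118% to 0.286%). Higher probesets became 1, 7 and 1 in the first 3 of these settings, where 2.36%, 2.01% and 3.64% of all probesets tested were higher. Genes whose probesets differed numbered 13, 8 to 15 without an array and 12 with dim probesets left out, alternatives chosen after seeing the data. The share of all genes that passed was counted only in the main fit, at 21.4%. Testing all rows adjusts over more tests, and the cause of the other changes was not tested.

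Whether the replicate numbers pair the samples is not stated in the labels or the methods. Deviations of arrays with the same number correlated at 0.03, -0.01 and 0.02, and those with different numbers at -0.04 to 0.03. Such values cannot show whether the samples were paired. With the replicate block the counts were 17 lower genes (7.93% of all clusters) and 0 higher ones (7.67%), and 0 lower probesets (0.0385% of all). The probesets of 10 genes differed, and the share of all genes that did so was not counted.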
